A study of Caenorhabditis elegans with 15 samples.

Results

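The comparison described here set glp-1 worms fed atg-18 RNAi against glp-1 worms fed the control RNAi labelled luc, with 3 libraries in each group. All genes with a mean of at least 1 RPKM (reads per kilobase of gene, relative to library size) over these 6 libraries were taken, which were 12441 of the 42048 genes listed. The gene nearest inside this limit, cutl-12, had a mean of 1.00 RPKM. Of the 12441 genes, 11474 were protein coding by the names that matched the annotation, and 281 were 21ur genes, which encode piRNAs. RNA came from whole bodies of Caenorhabditis elegans on adult day 1, kept at 20 °C. Both groups were strain SHU47, labelled with the genotype glp-1 and described by the submitters as lacking a germline. RNAi was given by feeding Escherichia coli HT115 (DE3) with an L4440 vector, and the labels of the treated group name a neuronal knockdown of atg-18. The luc libraries carry a dash in place of a treatment, and luc appears only in their titles. A further 6 libraries of the same strain on atg-2 or hlh-30 RNAi entered direct contrasts, and 3 libraries of TU3401 on luc, a strain with no genotype in its labels, served to check the germline. The labels give no alleles for SHU47. In TU3401 feeding RNAi works mainly in neurons: it lacks sid-1, the gene of a double-stranded RNA channel, everywhere except where the unc-119 promoter drives it. A knockdown labelled neuronal was thus read in RNA of the whole body, to which neurons contribute a small share. Whether libraries of 1 group were grown as separate cultures is not stated in the labels, and p-values here capture the variation among libraries alone, which may be technical.

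Autophagy encloses cytoplasm in a double membrane, the autophagosome, and delivers it to the lysosome for breakdown. ATG-18 belongs to the PROPPIN (in mammals WIPI) family, which binds phosphatidylinositol phosphates on the forming membrane and works with ATG-2, a protein that carries lipid to it. HLH-30, the worm counterpart of mammalian TFEB, is a transcription factor for autophagy and lysosome genes. Worms whose germline fails to proliferate, as in glp-1 mutants, live longer, and that long life needs autophagy genes and HLH-30.

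The 6 libraries held 18754390 to 24153207 reads, as recovered from the steps of the RPKM values, so a single read in a piRNA gene of 21 bases was worth 1.97 to 2.54 RPKM. Libraries of a group differed by more than sampling noise (chi-square per degree of freedom 7.26 to 23.3), and each counted as 1 replicate. The summed level of 38 core germline genes was 2.34 to 3.27% of the TU3401 mean in the luc libraries. It was 2.32 to 2.54% in the atg-18 RNAi libraries, and none of the 38 was at 0 in all 6. Other lists of germline and embryo genes were not as low. The oocyte and early embryo list stood at 32.9 to 35.7% in luc and 35.5 to 37.9% on atg-18 RNAi. The list of embryonic zygotic transcription stood at 15.11 to 17.98% and 13.5 to 18.6%. The sperm list lay above TU3401, at 244 to 260% and 239 to 304%. luc library 1 stood apart in genes of oocytes and embryos and in the lower genes of the authors' deposited table, as given below. The median of 22 oocyte and early embryo genes lay 1.69 log2 units above the luc mean there, against -0.86 and -0.75 in luc libraries 2 and 3 and -0.88 to -0.66 in the atg-18 RNAi libraries. These 22 genes passed the level filter with luc library 1 included, and fewer passed without it, so the filter favours a high median there. The summed level of all 28 genes of the list did not stand apart. It was 9113 RPKM in luc library 1 and 8533 and 9245 RPKM in luc libraries 2 and 3. Where leaving out luc library 1 moved a list's count or median by more than 1.5 times or turned its sign, the value without it is given, and single genes are given without it where stated. In RNA of whole worms, fewer cells of a type and less RNA per cell cannot be told apart. Differences below are of log2(RPKM + 1), atg-18 RNAi minus luc, with the standard error (SE) of limma, and they understate the change of low genes.

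The targeted gene, atg-18, was not lower on average in the libraries labelled atg-18 RNAi. It stood at 49.1, 81.3 and 115.8 RPKM there and at 78.5, 68.8 and 70.1 RPKM in luc. Library 1 of atg-18 RNAi lay below all luc libraries and libraries 2 and 3 lay above them, so the groups overlapped. The difference was 0.10 ± 0.28 (SE; limma adjusted p = 0.965), between -0.19 and 0.42 with each library left out in turn. What set atg-18 apart was its spread. Its SD between the 3 atg-18 RNAi libraries was 0.61 on the log2 scale, at the 99.03rd percentile of 1758 genes within 2-fold of its level (their median was 0.098). In luc its SD was 0.10, at the 57.4th percentile of the same genes.

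The gene next to atg-18 stood lower in the same libraries. F41E6.12, a gene of no described role that lies directly beside atg-18 on the same strand, stood at 10.04, 9.73 and 7.94 RPKM in the atg-18 RNAi libraries and at 17.5, 21.4 and 23.01 RPKM in luc. Every atg-18 RNAi library lay below every luc library, and the luc mean was 2.24 times that of atg-18 RNAi. The difference of -1.08 ± 0.13 (SE) had an adjusted p of 0.168 in the fit of the 6 libraries, was -1.19 without luc library 1, and was called in the fit of all 12 glp-1 libraries (limma adjusted p = 0.0155). The authors' deposited table lists it with a false discovery rate of 0.000247. It was lower in the atg-18 RNAi libraries than in those of atg-2 RNAi, at 20.3, 19.6 and 23.4 RPKM, and than in those of hlh-30 RNAi, at 27.4, 23.9 and 30.9 RPKM (limma adjusted p = 0.0171 and 0.000522). Of the 6 nearest genes on each side of atg-18, 5 others passed the level filter, and their unadjusted p ranged from 0.120 for asp-13 to 0.534 for grd-5. The sources used here do not say whether counting used strand, and reads shared between neighbours could not be separated.

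The partner and related genes did not pass the test. atg-2 stood at 30.7, 20.5 and 19.2 RPKM against 34.7, 26.6 and 28.9 in luc (-0.37 ± 0.19, adjusted p = 0.749), with library 1 of atg-18 RNAi inside the luc range. epg-6, the other worm PROPPIN gene of this step, differed by -0.06, hlh-30 by -0.03, sid-1 by -0.07 and glp-1 by -0.02, all with overlapping groups. atg-9, which encodes the membrane protein that seeds autophagosomes, differed by -0.08, and epg-3 and epg-4, whose products act at the endoplasmic reticulum in worm autophagy, by 0.02 and 0.11.

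**Figure D1:**
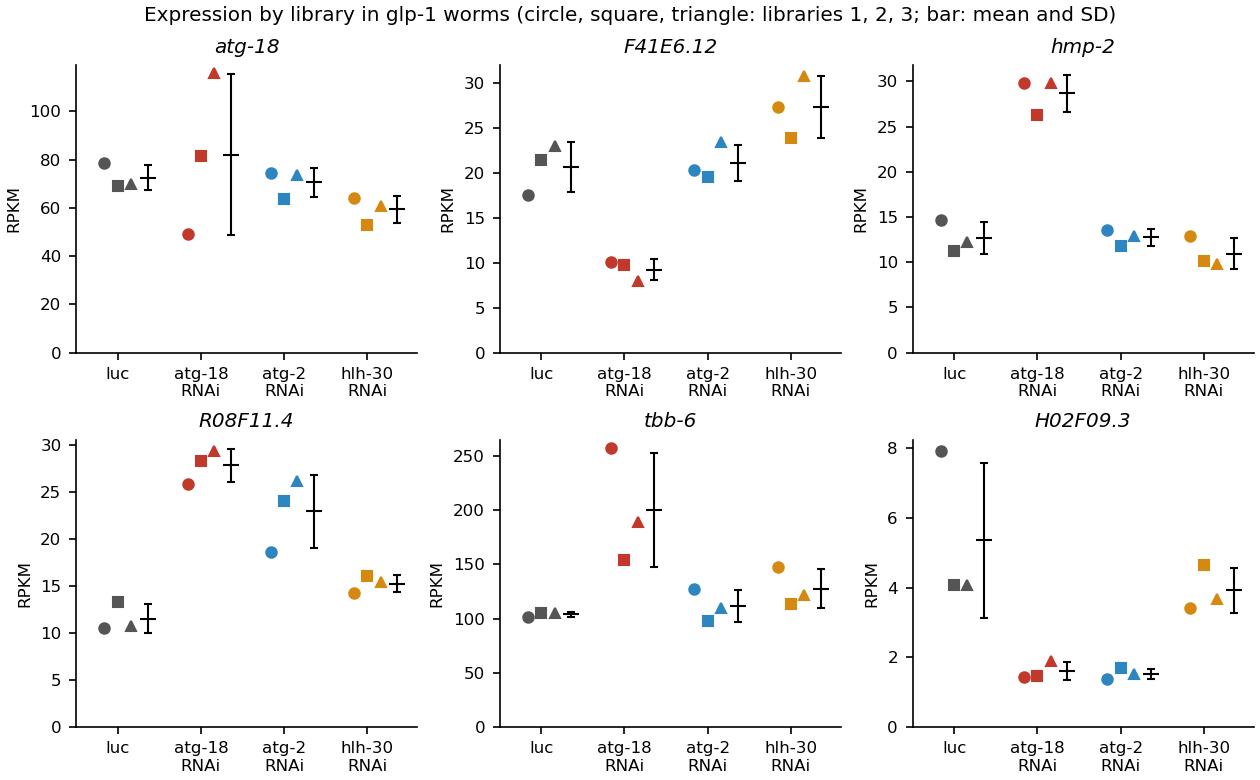
RPKM (linear axes from 0) of 6 genes in the 12 glp-1 libraries, with circles, squares and triangles for libraries 1, 2 and 3 and the bar for the group mean and SD. atg-18 spread from 49.1 to 115.8 RPKM in its own RNAi libraries, while F41E6.12 and hmp-2 stood apart in the atg-18 RNAi libraries from all 3 other groups.

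Across all genes the 2 groups were close. Of 12441 genes tested, limma with Benjamini-Hochberg adjustment called 0 (0.0%), and the smallest adjusted p was 0.0633. At an unadjusted p under 0.05 there were 850 genes (6.83%), of which 346 were higher (2.78%) and 504 lower (4.05%) in the atg-18 RNAi libraries. The groups did not overlap for 1466 genes (11.8%), 694 higher (5.58%) and 772 lower (6.21%). The median absolute difference was 0.091 on the log2 scale, below the median SE of 0.11, and 95% of genes differed by less than 0.46. For 38 genes the difference reached 1 in size without overlap between the groups, 14 higher and 24 lower. With all 12 glp-1 libraries in the fit, which share their estimate of the spread, 3 genes were called (0.0241%): R08F11.4 and hmp-2 higher and F41E6.12 lower. The authors' deposited table lists 44 genes with a false discovery rate under 0.05 (0.354% of the genes tested), 8 higher and 36 lower. Scaling on neuronal and muscle genes in place of all reads moved the median of all genes from -0.0059 to -0.11. This scale sums RPKM over both lists and rests mostly on muscle. Body wall muscle genes summed to 14816 to 19028 RPKM in the 6 libraries and pan-neuronal genes to 1283 to 1500 RPKM. The medians of these 2 lists under this scaling are thus not independent of it. List medians that turn negative with it are given below for the lists described, and each stands beside the -0.11 of all genes under the same scaling.

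**Figure D2:**
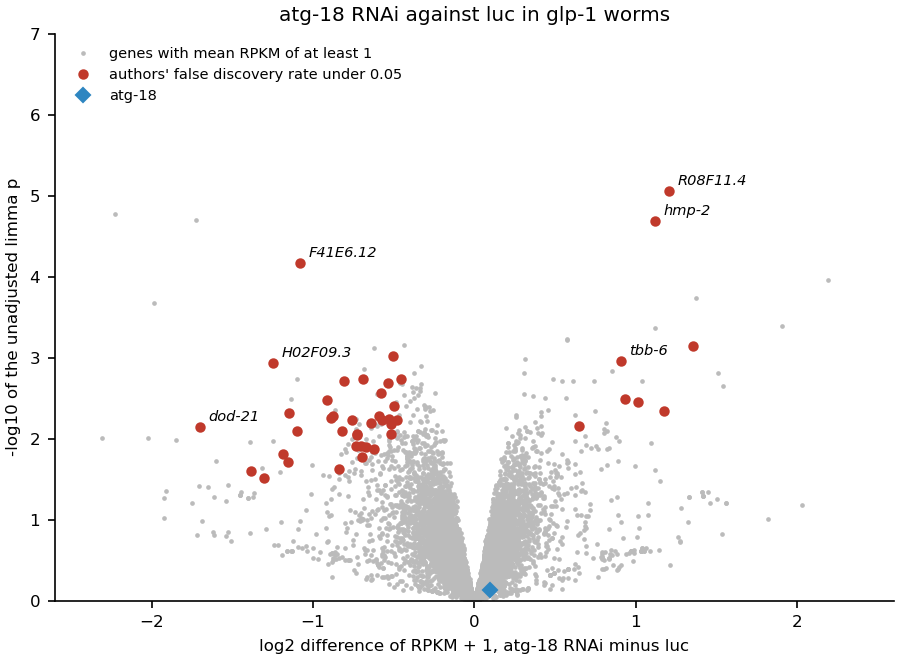
Log2 difference of RPKM + 1 (x axis, atg-18 RNAi minus luc) against -log10 of the unadjusted limma p (y axis) for the 12441 genes in grey, the 44 genes of the authors' deposited table with a false discovery rate under 0.05 in red and atg-18 as a blue diamond. hmp-2, R08F11.4 and F41E6.12 stand above the other red genes, and atg-18 lies near the bottom centre.

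Among the genes higher in the atg-18 RNAi libraries, hmp-2 and R08F11.4 led. hmp-2 encodes the beta-catenin of worm adherens junctions, which links cadherin to the actin-binding alpha-catenin. It stood at 29.9, 26.3 and 29.8 RPKM in the atg-18 RNAi libraries and at 14.7, 11.19 and 12.18 RPKM in luc. The groups lay far apart, with a ratio of means of 2.26. The difference was 1.12 ± 0.11 (SE; adjusted p = 0.0633 over 6 libraries and 0.00796 over 12, both limma; 1.22 without luc library 1), and the authors' deposited table gives a false discovery rate of 1.42e-06. Both other RNAi groups had values near those of luc, with hmp-2 at 13.6, 11.8 and 12.9 RPKM on atg-2 RNAi and at 12.9, 10.2 and 9.76 RPKM on hlh-30 RNAi. Of the 6 nearest genes on each side of hmp-2, K05C4.7 had the smallest unadjusted p, 0.112, with the opposite sign.

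R08F11.4 stood at 25.9, 28.3 and 29.3 RPKM in the atg-18 RNAi libraries and at 10.6, 13.3 and 10.7 RPKM in luc, a ratio of 2.42 with no overlap. Its difference was 1.21 ± 0.10 (SE; 1.15 without luc library 1), with the same limma adjusted p values as hmp-2 (0.0633 and 0.00796) and a false discovery rate of 5.89e-06 in the authors' deposited table. Unlike hmp-2 it was also high on atg-2 RNAi, at 18.6, 24.07 and 26.2 RPKM, and the direct contrast with that group gave 0.28 ± 0.12 (limma adjusted p = 0.999). On hlh-30 RNAi it stood at 14.3, 16.04 and 15.5 RPKM, lower than on atg-18 RNAi (limma adjusted p = 0.0141).

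Over 6 libraries neither hmp-2 nor R08F11.4 passed the test over all genes. The other genes that led on the higher side passed it over neither 6 nor 12 libraries. tbb-6, a beta-tubulin gene known to be induced by mitochondrial stress in worms, stood at 257, 154 and 189 RPKM against 101, 105 and 105 in luc. Even its lowest atg-18 RNAi library lay well above the tight luc group (0.91 ± 0.17, adjusted p = 0.673, and 0.89 without luc library 1), and the authors' deposited table lists a false discovery rate of 0.000633. pme-4, which encodes a poly(ADP-ribose) glycohydrolase, stood at 5.21, 3.15 and 6.81 RPKM against 2.31, 1.76 and 1.68, and cyp-29A4, a cytochrome P450 gene, at 24.06, 11.6 and 18.9 RPKM against 6.33, 5.72 and 10.03. The groups did not overlap for either gene, and their differences were 1.01 and 1.18. gba-2, a glucocerebrosidase gene of the lysosome, stood at 5.31, 4.08 and 3.46 RPKM against 1.15, 1.75 and 2.46 (0.93 ± 0.21, adjusted p = 0.673, and 0.76 without luc library 1).

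A further set was chosen for its small unadjusted p among genes whose groups did not overlap. It held acly-1, a gene of ATP citrate lyase (3.31, 4.52 and 4.50 RPKM against 0.900, 1.62 and 1.56), and thn-5, of the thaumatin family, with a difference of 0.57. Also in it were scl-25 at 0.57, C54G6.8 at 1.36, nspe-2 at 0.85 and Y14H12A.4 at 1.38. F59C6.16 was the most abundant, at 2413, 2365 and 2609 RPKM against 1935, 2066 and 1935 (0.31 ± 0.06). The limma adjusted p of the genes in this set was 0.328 or more. vglu-3, of the vesicular glutamate transporter family, is 1 of the 8 higher genes of the authors' deposited table and stood at 35.4, 27.1 and 39.9 RPKM against 21.8, 17.5 and 24.8. The level of Y47C4A.3, named after its values were seen, was 1.82, 4.97 and 2.12 RPKM on atg-18 RNAi and 0 in all 3 luc libraries.

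In the fit of the 6 libraries no gene on the lower side passed the test over all genes, F41E6.12 included. In that of the 12 glp-1 libraries only F41E6.12 did. The widest ratio among the 5 that led the authors' deposited table was that of dod-21, a gene named for lying downstream of DAF-16, at 73.8, 44.1 and 51.5 RPKM against 386, 137 and 112.6 in luc. The groups did not overlap, although luc library 1 stood far above the other luc libraries. The difference was -1.70 ± 0.45 (adjusted p = 0.673) and -1.16 without luc library 1. H02F09.3 stood at 1.43, 1.47 and 1.89 RPKM against 7.93, 4.07 and 4.09 (-1.24 ± 0.24, and -0.97 without luc library 1). Its level on atg-2 RNAi was as low, at 1.37, 1.68 and 1.51 RPKM.

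The infection response genes irg-8 and irg-7 shared this pattern. irg-8 (listed as ZK6.11) stood at 503, 519 and 447 RPKM against 1295, 860 and 701, and irg-7 (listed as F40F4.6) at 272, 284 and 253 RPKM against 431, 374 and 346. No library of either group reached into the other. Differences were -0.91 ± 0.21 and -0.50 ± 0.09 (adjusted p = 0.673 for both), and -0.67 and -0.42 without luc library 1. cpt-3, of the carnitine palmitoyltransferase family, was steady at 8.60, 8.91 and 8.71 RPKM against 18.8, 13.0045 and 13.03 (-0.69 ± 0.14).

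Of the genes with the smallest unadjusted p on this side, clec-67, a C-type lectin gene used as a marker of the pathogen response, stood at 157, 175 and 177 RPKM against 246, 223 and 219 (-0.43 ± 0.07, adjusted p = 0.627). ins-35, which encodes an insulin-like peptide, stood at 2.87, 2.47 and 4.096 RPKM against 10.9, 6.55 and 6.47 (-1.099 ± 0.22). The others were C08F11.12, hpo-15, VZK822L.2, ger-1 and R03G8.3, with differences of -0.62, -0.33, -0.68, -0.38 and -0.46. None of these genes passed the test over all genes, and all were chosen among genes whose groups did not overlap.

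Further genes among the 36 lower ones of the authors' deposited table were named after their values were seen. They included the DAF-16 downstream genes dod-17 (-0.57) and dod-19 (-0.73), the lectin gene clec-41 (-0.64) and dct-17 (-0.87). gale-1, for the epimerase of UDP-galactose, differed by -1.15 and odc-1, for ornithine decarboxylase, by -0.58. B0024.4, C50F7.5 and F55G11.4 differed by -1.19, -1.39 and -1.30, and by -0.82, -0.86 and -0.72 without luc library 1. The list of DAF-16 targets did not stand lower as a whole. Of its 24 measured genes, 17 lay above 0 and 7 below (70.8% above, against 48.2% of all genes). Its median was 0.071, 0.10 without luc library 1 and -0.043 with the neuronal and muscle scaling.

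luc library 1 was the highest of the 3 luc libraries in 35 of these 36 genes (97.2%), against 51.8% of all genes tested. It was the highest of all 6 libraries in 35 as well, which follows because the groups did not overlap for these genes. The median difference of the 36 genes was -0.73 with all libraries, -0.50 without luc library 1, -0.82 without luc library 2 and -0.90 without luc library 3. Without luc library 1, all 36 still had the same direction and an unadjusted limma p under 0.05. For F55G11.4, as an example, luc library 1 held 799 RPKM and luc libraries 2 and 3 held 244 and 229, against 189, 107 and 146 in the atg-18 RNAi libraries. The 36 genes as a set were about as low on atg-2 RNAi. Relative to luc libraries 2 and 3 their median was -0.35, -0.55 and -0.57 on atg-18 RNAi and -0.46, -0.48 and -0.56 on atg-2 RNAi. On hlh-30 RNAi it was 0.071, 0.025 and 0.034. The direct contrast with atg-2 RNAi gave a median of 0.0035, with 17 genes below 0 and 19 above. All 44 genes of the authors' deposited table had the same sign, groups that did not overlap and an unadjusted p under 0.05 in the limma fit. These genes were chosen by the authors on the same 6 libraries, so the counts are no independent evidence of their direction. The part that luc library 1 had in these values beyond the differences given without it was not tested.

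**Figure D3:**
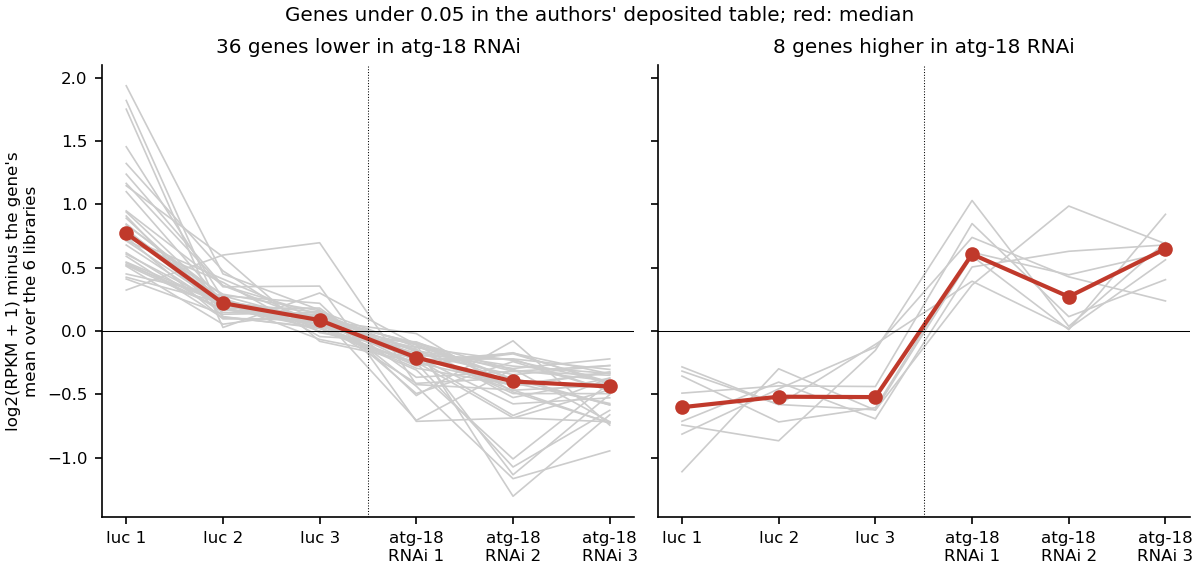
Log2(RPKM + 1) minus the gene's own mean over the 6 libraries (y axis) for the 36 lower and 8 higher genes of the authors' deposited table, by library (x axis), with a grey line for each gene and the median in red. In the left panel luc library 1 lies above luc libraries 2 and 3, which still lie above the 3 atg-18 RNAi libraries, and in the right panel the 3 luc libraries lie close together.

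Differences of the autophagy genes from luc were small. Over 48 measured genes of initiation, phosphatidylinositol phosphate turnover, the ATG-9 and ATG-2 step, ATG8 conjugation, cargo receptors and fusion with lysosomes, 0 were called (0.0% of all genes), 0 were higher and 1 was lower at an unadjusted limma p under 0.05. Their differences ranged from -0.37 to 0.13, with 21 above 0 and a median of -0.024, against 48.2% above 0 and a median of -0.0059 over all genes tested. The sign of this median turned without luc library 1, with 25 genes above 0 and a median of 0.015, against 0.016 over all genes. The 1 gene was lgg-3, the worm ATG12 gene of the conjugation system, at 18.4, 17.4 and 15.9 RPKM against 22.3, 22.3 and 19.8 (-0.30 ± 0.08, adjusted p = 0.673). lgg-1, which encodes an ATG8 protein of the autophagosome membrane, stood at 2075, 1656 and 1750 RPKM against 1959, 1765 and 1737, with groups that overlapped.

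Lysosomal genes lay on both sides of 0. Of 28 hydrolase genes, 4 were higher and 6 lower at an unadjusted p under 0.05, against 2.78% and 4.05% of all genes, and without luc library 1 the counts were 2 and 5. None was called, and the median was 0.031 (-0.079 with the neuronal and muscle scaling). The aspartic protease genes asp-1 and asp-6 stood on the lower side, asp-1 at 2515, 2718 and 2636 RPKM against 3248, 3058 and 3021 (-0.25 ± 0.05) and asp-6 at -0.35 (-0.23 without luc library 1), while gba-2 above stood on the higher side. Of 7 lysosomal lipase genes, lipl-2 and lipl-5 had an unadjusted p under 0.05, with differences of 0.21 each. The 21 genes of the proton pump, which acidifies the lysosome, had 0 genes at an unadjusted p under 0.05 and a median of -0.012 (-0.0033 without luc library 1). Among 25 regulators of autophagy and long life, 1 had an unadjusted p under 0.05, skn-1, the worm counterpart of the Nrf transcription factors, at 54.96, 47.1 and 48.3 RPKM against 72.8, 65.3 and 54.3 (-0.34). Its atg-18 RNAi library 1 lay just above luc library 3, so the groups overlapped. No gene of this list had an unadjusted limma p under 0.05 without luc library 1, and its median was 0.034 in place of -0.030.

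Most genes of the endoplasmic reticulum stress list, mainly chaperones, stood below 0. Of its 21 measured genes, 17 did so, with a median of -0.17, and 10 had an unadjusted limma p under 0.05 on the lower side, against 4.05% of all genes. For 11 of the 21 the groups did not overlap on the lower side, against 6.21% of all genes. hsp-4, the worm BiP gene induced by unfolded protein, stood at 221, 180 and 173 RPKM against 396, 252 and 253 (-0.62 ± 0.19, adjusted p = 0.673, and -0.41 without luc library 1). The calreticulin gene crt-1 stood at 675, 591 and 610 RPKM against 1052, 765 and 822.1 (-0.48 ± 0.12), and both genes are among the 36 lower ones of the authors' deposited table. The protein disulphide isomerase genes pdi-2 and pdi-6 were steady within the atg-18 RNAi group, pdi-2 at 411, 413 and 397 RPKM against 583, 498 and 490 (-0.36 ± 0.08) and pdi-6 with a difference of -0.38. hsp-3, the second BiP gene, and enpl-1, for the chaperone GRP94, differed by -0.31 and -0.41. Library 1 was the highest luc library for each of these 6 genes. Without luc library 1 the list's median was -0.13, 17 of 21 genes lay below 0 and 8 had an unadjusted p under 0.05 on the lower side. None of the 21 genes was called over all genes.

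Of 16 heat shock genes, 5 had an unadjusted p under 0.05 on the lower side, against 4.05% of all genes, and the median was -0.25, but without luc library 1 the count was 1 and the median -0.20. hsp-17, a small heat shock protein gene, stood at 129, 126 and 106 RPKM against 226, 163 and 161 (-0.59 ± 0.15, adjusted p = 0.673). The 17 genes of the mitochondrial stress response had 0 genes at an unadjusted p under 0.05 and a median of -0.040 (-0.0075 without luc library 1).

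Immune effector genes of the gut were mixed. Of 38 genes, 5 were higher and 9 lower at an unadjusted limma p under 0.05, against 2.78% and 4.05% of all genes, and the median was -0.12. Without luc library 1 the counts were 3 and 9 and the median -0.061. The saposin-like genes show both directions. spp-1 stood at 1179, 1135 and 1060 RPKM against 730, 856 and 961 (0.41 ± 0.10), with luc library 1 the lowest of all. spp-17 stood at 4483, 4601 and 4415 RPKM against 2834, 3711 and 3911 (0.38 ± 0.12, and 0.24 without luc library 1). spp-18 went the other way, at 65.4, 73.9 and 65.5 RPKM against 110, 79.2 and 90.9 (-0.43 ± 0.12), and in all 3 genes the groups did not overlap.

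In the fatty acid list of 33 genes, 3 were higher and 1 lower at an unadjusted limma p under 0.05 (2.78% and 4.05% of all genes), and 2 and 0 without luc library 1. fat-3, a fatty acid desaturase gene, stood at 289, 236 and 258 RPKM against 168, 190 and 213 (0.45 ± 0.11, adjusted p = 0.673), and fat-1, the omega-3 desaturase gene, differed by 0.26. lbp-7, of the fatty acid binding protein family, was the 1 on the lower side, at -0.30. The list as a whole had 17 genes above 0 and a median of 0.0096, which was 0.018 without luc library 1 and -0.086 with the neuronal and muscle scaling. ftn-1, the intestinal ferritin gene, stood at 480, 329 and 356 RPKM against 171, 215 and 310 (0.76 ± 0.23), while ftn-2, the more widely expressed ferritin gene, differed by -0.20. Groups did not overlap for either ferritin gene, and ftn-1 differed by 0.57 without luc library 1. Among 27 insulin-like peptide genes, 3 were higher and 1 lower at an unadjusted p under 0.05 (2.78% and 4.05% of all genes), the latter being ins-35, and the counts were 4 and 1 without luc library 1.

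Neurons, where the RNAi is meant to act, showed small differences. In 4 lists of neuronal genes, 71 measured genes lay above 0 and 42 below (62.8% above, against 48.2% of all genes), 6 were higher and 0 lower at an unadjusted limma p under 0.05 (2.78% and 4.05% of all genes), and the median was 0.027. Without luc library 1, 81 lay above 0 and 31 below, with a median of 0.055. All genes moved up too without it, with 6848 above 0, 5525 below and a median of 0.016. The 14 transmitter-specific genes lay mostly on the other side, with 5 above 0, 9 below and a median of -0.019 (-0.0098 without luc library 1). Medians of the pan-neuronal and FMRFamide-like peptide lists were -0.086 and -0.038 with the neuronal and muscle scaling, against -0.11 over all genes. rab-3, a synaptic vesicle GTPase gene, stood at 25.02, 23.6 and 27.2 RPKM against 21.6, 21.1 and 19.9 (0.26 ± 0.08, adjusted p = 0.673), with no overlap. The neuropeptide genes flp-16 and nlp-7 had differences of 0.26 each, also with no overlap. Of 30 FMRFamide-like peptide genes 23 lay above 0, with a median of 0.075 and 2 at an unadjusted p under 0.05. The summed level of the 31 pan-neuronal genes was 1500, 1284 and 1358 RPKM on atg-18 RNAi and 1451, 1284 and 1283 RPKM on luc, so the groups overlapped.

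Most genes of translation and energy metabolism lay slightly above 0. With the neuronal and muscle scaling the list medians were -0.072 for the ribosome, -0.047 for the respiratory chain and -0.035 for glycolysis, against -0.11 over all genes. Over all genes tested, 48.2% lay above 0. Of 34 respiratory chain genes 32 lay above 0, with a median of 0.067 and none at an unadjusted p under 0.05. Of 77 cytosolic ribosome genes 65 lay above 0, with a median of 0.043 and 1 at an unadjusted p under 0.05 (rpl-4, 0.13 ± 0.05). By library the ribosome median relative to the luc mean was -0.046, 0.11 and 0.060 on atg-18 RNAi and -0.085, 0.032 and 0.052 on luc, so the groups overlapped. The respiratory chain median was -0.024, 0.14 and 0.088 on atg-18 RNAi and -0.090, 0.068 and 0.0096 on luc. The groups overlapped there and for glycolysis as well. The ribosome list without luc library 1 had 40 of 77 above 0, 0 genes at an unadjusted limma p under 0.05 and a median of 0.0074, and the respiratory chain list 29 of 34 and 0.021. Over all genes without luc library 1, 6848 lay above 0 and 5525 below, with a median of 0.016. Of 25 genes of glycolysis and the glyoxylate cycle 22 lay above 0, with a median of 0.079 (0.043 without luc library 1).

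Differences in germline and embryo genes depended on luc library 1. The oocyte and early embryo list had a median difference of -0.87, and 0.092 without luc library 1, where fewer of its genes passed the level filter (7 above 0 and 4 below). mex-5, a maternal polarity gene, stood at 0.841, 0.942 and 1.02 RPKM on atg-18 RNAi and at 6.76, 1.099 and 1.31 RPKM on luc, and rpl-11.1, a ribosomal gene used in the germline, at 17.6, 17.7 and 19.5 against 37.6, 17.5 and 19.8 RPKM. Library 1 of atg-2 RNAi and of hlh-30 RNAi was high too, with mex-5 at 15.96 and 9.33 RPKM, whereas library 1 of atg-18 RNAi was not. Among 78 cuticle collagen genes 35 lay above 0, with a median of -0.0064 (-0.076 without luc library 1), and of 35 body wall muscle genes 26 lay above 0, with a median of 0.072 (0.031 without luc library 1 and -0.041 with the neuronal and muscle scaling).

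**Figure D4:**
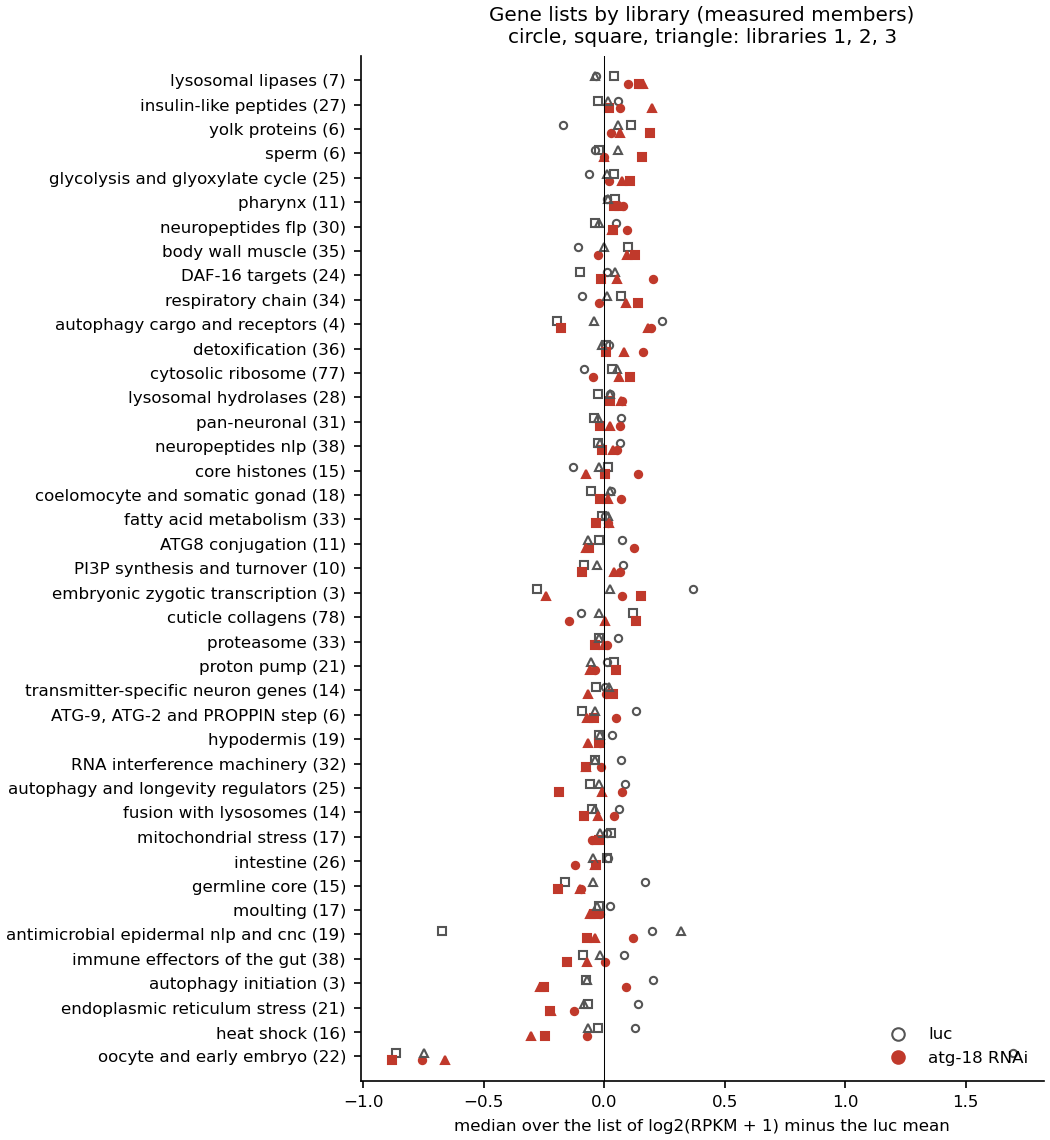
Median over each gene list of log2(RPKM + 1) minus the gene's luc mean (x axis), by library, with open grey symbols for luc and filled red symbols for atg-18 RNAi, and circles, squares and triangles for libraries 1, 2 and 3 (measured members in brackets). The oocyte and early embryo list stands out through luc library 1 at 1.69, over genes that passed the level filter with that library included. In the endoplasmic reticulum stress list the 3 atg-18 RNAi libraries lie below the 3 luc libraries.

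The libraries on atg-18 RNAi were next set directly against those on RNAi of its partner atg-2, without the luc libraries in the contrast. Of 12460 genes with a mean of at least 1 RPKM over the 12 glp-1 libraries, 2 were called (0.0161%): hmp-2 was higher (1.11 ± 0.12, limma adjusted p = 0.0171; 0.00803% of genes) and F41E6.12 lower (-1.11 ± 0.13, limma adjusted p = 0.0171; 0.00803% of genes). With the replicate number as a block, which paired these libraries, hmp-2 alone was called (0.00803% of genes). At an unadjusted p under 0.05 there were 391 genes (3.14%). With single libraries left out, 0 to 2 genes were called, and 0 without any 1 of the 3 atg-18 RNAi libraries or without atg-2 RNAi library 2. Without atg-2 RNAi library 1 the calls were F23A7.5 and hmp-2, and without its library 3 the call was F23A7.5, named here after its result was seen. atg-2 itself stood at 43.1, 39.4 and 38.01 RPKM in the libraries labelled atg-2 RNAi, above every library on atg-18 RNAi (-0.78 ± 0.17, adjusted p = 0.771), so the labelled target was not lower there either. irg-8 stood at 419, 495 and 396 RPKM on atg-2 RNAi and dod-21 at 53.6, 44.8 and 38.7 RPKM, inside or near the range of the atg-18 RNAi libraries. Both RNAi groups were compared with the same luc libraries, and a p above the threshold does not show that they were alike.

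Against hlh-30 RNAi the atg-18 RNAi libraries differed in 127 of 12460 genes (1.02%), 69 higher (0.554%) and 58 lower (0.465%), in the fit without pairs. With the replicate number as a block, which paired these libraries, 506 genes were called (4.06%), and 26 were called with the neuronal and muscle scaling. Leaving out single libraries gave 28 to 78 calls, with the fewest, 28, without atg-18 RNAi library 1. The count was 30 and 78 without atg-18 RNAi libraries 3 and 2, and 41, 58 and 31 without hlh-30 RNAi libraries 1, 2 and 3. For all 127 genes the groups did not overlap (13.6% of all genes). The atg-18 RNAi mean lay within the range of the 3 luc libraries for 37 of the 127 genes and the hlh-30 RNAi mean for 12. The same shares over all 12460 genes were not computed, so these counts do not show which group departed from luc.

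The largest differences were in genes that were low on hlh-30 RNAi. dct-8, a gene downstream of DAF-16, stood at 1395, 517 and 822.2 RPKM on atg-18 RNAi and at 87.7, 37.8 and 64.8 RPKM on hlh-30 RNAi (3.79 ± 0.43, limma adjusted p = 0.00237). dct-7, of the same naming class, stood at 48.96, 12.03 and 24.5 RPKM against 1.13, 0.473 and 1.36 (3.71 ± 0.63, limma adjusted p = 0.0242). tts-1, a long non-coding RNA of long-lived worms, stood at 3507, 2025 and 2769 RPKM against 512, 280 and 417 (2.78 ± 0.25, limma adjusted p = 0.000522). For all 3 genes the atg-18 RNAi libraries overlapped the luc libraries. On the lower side hlh-30 itself led, at 55.2, 41.8 and 50.2 RPKM on atg-18 RNAi and 126, 293 and 328 RPKM in the libraries labelled hlh-30 RNAi (-2.21 ± 0.28, limma adjusted p = 0.00511), so this label too is not matched by a lower level of its target. Whether reads from the RNAi vector entered the values of atg-18, atg-2 and hlh-30 in their own RNAi libraries, or whether a label is wrong, was not tested, so these values may not be the worm's own transcript level. dod-21 and B0024.4 followed at -2.202 ± 0.37 and -1.94 ± 0.31 (limma adjusted p = 0.0242 and 0.0197). dod-21 stood at 254, 231 and 291 RPKM on hlh-30 RNAi, between luc library 1 and the other luc libraries.

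Lysosomal genes were among those called higher than on hlh-30 RNAi. Of 27 hydrolase genes 6 were called higher and 0 lower, against 0.554% of all genes called higher, and the list's median was 0.086. Among them the cathepsin B-like protease genes cpr-1, at 247, 241 and 250 RPKM against 73.1, 72.2 and 82.2, and cpr-4, at 231, 272 and 229 RPKM against 99.4, 111.8 and 94.3, differed by 1.69 and 1.25 (limma adjusted p = 0.000766 and 0.000522). Of 7 lysosomal lipase genes 3 were called higher, lipl-1 (1.03, adjusted p = 0.00128), lipl-2 (0.45, adjusted p = 0.0143) and lipl-5 (0.26, adjusted p = 0.0264). lgg-1 was called higher as well, with 1366, 1229 and 1341 RPKM on hlh-30 RNAi (0.47 ± 0.09, limma adjusted p = 0.0321). Of 81 cuticle collagen genes 4 were called lower and 0 higher, against 0.465% and 0.554% of all genes, and grd-14, a hedgehog-related gene of the moult, stood at 50.97, 55.2 and 52.03 RPKM against 102, 101 and 113.1 (-0.99 ± 0.08, limma adjusted p = 0.000297). The endoplasmic reticulum stress list had 0 of 21 genes called against hlh-30 RNAi and a median of -0.16.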

How the data were processed

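The authors deposited RPKM per gene and library in 4 tables of 42048 genes, with identical luc columns in each (0 values differed). The deposited tables hold, per the file headers, the authors' log2 fold change, p-value, false discovery rate and a ranking score from a test that no source used here names. The submitters' processing notes list GRCh38, a human build that cannot apply to worm genes (no coordinates are given), beside bcl2fastq and TopHat2 2.1.1. Reads were recovered from the RPKM steps for 19514 of 19517 genes with values in several libraries (99.98%, relative tolerance 1e-09). Genes with a mean of at least 1 RPKM were tested with limma 3.58.1 (R 4.3.3, mean-variance trend, not robust) on log2(RPKM + 1), with Benjamini-Hochberg adjusted p under 0.05 in either direction. The fit was tested on simulated data. For direct contrasts the 12 glp-1 libraries were fitted together. An exact permutation of 3 against 3 libraries has 0.1 as its smallest p and was not run. Same-numbered libraries of atg-18 RNAi deviated together with those of atg-2 RNAi (r across genes 0.157, 0.196 and 0.190) and hlh-30 RNAi (0.207, 0.259 and 0.234). All these r lay above the limit of 0.1, so calls with the numbers as pairs are given beside the main ones for both direct contrasts. The main calls and the differences, SE and adjusted p of single genes come from the fit without pairs. Names matched the WBcel235 annotation for 40268 of 42048 genes, and this annotation was used for neighbours only.

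Genes named were atg-18, atg-2, hlh-30, epg-6, sid-1 and glp-1, up to 10 genes each way averaging 2 RPKM or more whose groups were separate (called genes, otherwise the smallest unadjusted p), the 5 each way of lowest false discovery rate in the authors' deposited table, the 2 each way of smallest p in each of 41 gene lists, the ATG-9 and ATG-2 list, and the 3 largest called each way per direct contrast. hsp-3, hsp-4, crt-1, enpl-1, lgg-1, cpr-4, lipl-1, grd-14, vglu-3, gale-1, odc-1, clec-41, dct-17, dod-17, dod-19, C50F7.5, F55G11.4, F23A7.5, Y47C4A.3, 21ur-5862 and the neighbour genes were chosen after values were seen. The members and lists were chosen with earlier results of these data known. Tables were summarised in Python 3.11.15 (numpy 2.4.6, pandas 2.3.3) and drawn with matplotlib 3.10.9. The cuticle collagen list takes all numbered col genes in the files.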

Additional observations from a re-analysis of the deposited data

Results flagged for a closer look

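A total of 8 genes differed between RNAi groups by a direct test and were among the largest called changes. They were picked among called genes whose groups did not overlap, so the library counts below follow from that choice. Against atg-2 RNAi these were hmp-2, higher on atg-18 RNAi by 1.11 on the log2 scale (3 of 3 libraries above all of atg-2 RNAi), and F41E6.12, at -1.11 (3 of 3 below). Against hlh-30 RNAi they were dct-8 at 3.79, dct-7 at 3.71 and tts-1 at 2.78, each higher in 3 of 3 libraries, and hlh-30 at -2.21, dod-21 at -2.202 and B0024.4 at -1.94, each lower in 3 of 3. The hlh-30 value is that of the RNAi target in its own RNAi libraries, where reads from the RNAi vector or a wrong label were not tested.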

How the results depend on the processing

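Against luc, 0 genes were called under each alternative (pseudocount 0.1, no filter, a filter at 5 RPKM, robust fitting, median-ratio scaling, scaling on neuronal and muscle genes, no 21ur genes, each library left out), except 3 with all 12 glp-1 libraries and 1 without a trend. That 1 gene, 21ur-5862, had 1 read in each luc library and 0 in the others; short genes of 1 to 2 reads made up 4 of the 10 smallest p. The replicate block gave 0 calls and 1762 genes at an unadjusted limma p under 0.05. The numbers of atg-18 RNAi and luc were not taken as pairs (r = 0.231, 0.214 and 0.0841), the last r being under the limit of 0.1. Libraries of different numbers gave r of -0.0176 at most, so a pairing is not shown to be absent. Scaling on neuronal and muscle genes moved the median of all genes to -0.11 and gave 79 higher and 615 lower genes at an unadjusted p under 0.05. Against atg-2 RNAi (2 calls) the block gave 1 call, and 0 to 2 were made with libraries left out. With neuronal and muscle scaling the calls were F23A7.5 and F41E6.12, without hmp-2. F23A7.5 was called beside hmp-2 and F41E6.12 with pseudocount 0.1, with a filter at 5 RPKM and with no 21ur genes. Against hlh-30 RNAi (127 calls) the count was 59 with no filter, 50 without a trend, 26 with neuronal and muscle scaling, 506 with the replicate block and 28 to 78 with libraries left out. The cause was not tested. Small differences from luc changed sign: under neuronal and muscle scaling atg-18 was -0.0175, epg-3 -0.0874 and lgg-1 -0.11. With libraries left out, ranges were -0.19 to 0.42 for atg-18, -0.12 to 0.078 for hlh-30, -0.25 to 0.056 for epg-6, -0.14 to 0.0027 for sid-1, -0.10 to 0.058 for glp-1, -0.15 to 0.0076 for atg-9, -0.023 to 0.0685 for epg-3, -0.094 to 0.068 for lgg-1, -0.79 to 0.44 for dct-7 and -0.031 to 0.37 for tts-1. Depth limits the 21ur genes, since 1 read moved them by about 2 RPKM.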
